A study of Homo sapiens with 3 samples.

Results

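The comparison described here is between the unsorted cell pools of a pair of genome-wide CRISPR/Cas9 knockout screens in K562, a human chronic myeloid leukaemia cell line with erythroid features that carries the BCR-ABL1 fusion. Its members were all sgRNAs with at least 10 reads in either of the 2 unsorted pools, an sgRNA absent from a file being read as 0, and all genes with at least 4 such sgRNAs. Of 200682 sgRNAs seen anywhere in the series 195688 were compared, and of 20381 targeted genes 19637 were tested, which left 744 genes with too few sgRNAs. The series holds 3 libraries, of which these pools are 2, so each side of the comparison was 1 library with no replicate.

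Both pools came from K562 cells expressing Cas9 that were transduced with the lentiviral Bassik Human CRISPR KO Library (multiplicity of infection 0.3). Puromycin (1 μg/mL) was added 48 h after transduction and kept on for 72 h. In the high screen, cells were given IFN-γ at 1 ng/mL for 24 h and sorted for MHC class I positive cells at days 18 and 25, and in the low screen they were given 25 ng/mL and sorted for MHC class I low cells at days 7 and 15. The controls, here the high-screen pool and the low-screen pool, were mutagenised cells that did not pass through the sort. The labels give neither the day of harvest of either control nor whether it was given IFN-γ, and the name of the low-screen control carries a different HLA antibody in its title and in its data, so that which of these antibodies its screen used is not settled. Time in culture, IFN-γ dose and library therefore cannot be told apart in what follows.

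A pooled knockout screen counts the integrated sgRNAs in genomic DNA, so that a count measures how many cells of a knockout are present and not how strongly a gene is expressed. Cells that lose a gene they need for division are diluted out as the culture grows, and the sgRNAs against that gene fall in abundance relative to safe-targeting sgRNAs, which cut the genome at sites without a known function. How early a knockout is lost depends among other things on how long the existing protein lasts and on how the cell copes without it.

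The high-screen pool held 22562241 reads matched to an sgRNA and the low-screen pool 98426251, or 4.36 times as many. The median sgRNA had 87 reads in the high-screen pool and 391 in the low-screen pool. In spite of its greater depth the low-screen pool lacked more sgRNAs, with 13170 (6.56%) at 0 reads against 4603 (2.29%) in the high-screen pool. Of the 13170 absent from the low-screen pool, 10017 had at least 10 reads in the high-screen pool, and of the 4603 absent from the high-screen pool 3809 had at least 10 in the low-screen pool. Safe-targeting sgRNAs were absent in like manner, 356 of 6645 (5.36%) from the low-screen pool and 139 (2.09%) from the high-screen pool. Absent here means exactly 0 reads. An observed 0 leaves room for an expected count of up to 3 reads. That is 0.0305 CPM (reads scaled to a common total of matched reads) in the low-screen pool and 0.133 CPM in the high-screen pool. Reads were PCR products without molecular identifiers. The intervals given below are binomial over the sgRNAs or genes counted. They take these as independent, although the same ones are counted in both pools, and do not cover a difference between libraries.

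Single sgRNAs differed widely between the pools whatever they targeted. Each log2 ratio was taken as high-screen over low-screen pool after scaling to matched reads, with a pseudocount of 1 read, so that a positive value means more cells with that sgRNA in the high-screen pool. Safe-targeting sgRNAs had a median log2 ratio of -0.16 and an interquartile range of -1.001 to 0.70, and 25.0% of them were at least 2-fold lower (95% exact binomial interval 24.0 to 26.1) and 18.7% at least 2-fold higher (17.8 to 19.7). Non-targeting sgRNAs had a median of 0.12 (-0.56 to 0.79) and gene-targeting sgRNAs one of -0.03 (-0.93 to 0.87). Spearman's rho between the pools, as a description across sgRNAs of the same 2 libraries, was 0.52 for safe-targeting, 0.70 for non-targeting and 0.55 for gene-targeting sgRNAs. The abundance of any 1 sgRNA is therefore not read below, and genes were described by the median over their sgRNAs.

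Gene medians had a median of -0.03 over the 19637 genes and an interquartile range of -0.38 to 0.32. At least 2-fold lower in the high-screen pool were 828 genes (4.22% of those tested) and at least 2-fold higher 750 (3.82%). With every ratio centred on the safe-targeting sgRNAs in place of matched reads, these counts were 497 lower and 1155 higher. The medians nearest the limit were -1.001 and -0.9997 on the lower side and 1.001 and 0.9995 on the higher side. Redundant siRNA activity (RSA), the ranking the study used, asks whether the sgRNAs of a gene gather at 1 end of the ranking of all sgRNAs. With its rule of a score below 0.001 resting on at least 4 sgRNAs, 146 genes were called lower (0.743%) and 162 higher (0.825%). Such a call compares these 2 libraries and not the conditions, and after adjustment for the number of sgRNAs per gene and of genes no call passed 0.05 in either direction (smallest adjusted value 0.162 lower and 0.180 higher). Without the adjustment 4653 genes were below 0.05 on the lower side and 4738 on the higher side, since the score is the best over the positions of a gene's sgRNAs. Olfactory receptor genes, which K562 is not known to need, had 11 of 379 members at least 2-fold lower, 18 at least 2-fold higher and 2 called in each direction. They are families of close copies, and 23.4% of their sgRNAs in the high-screen pool and 24.9% in the low-screen pool lay below 25% of the median safe-targeting level.

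Genes were then grouped into 70 lists by cell function, which held 2129 entries tested, or 2093 distinct genes of the 19637. The lists, chosen with earlier results of these data known, took in 44 of the 146 genes called lower and 40 of the 162 called higher. On 30 lists the share of members at least 2-fold lower was over 2 times that of all genes, and on 22 lists the share at least 2-fold higher was, with 7 lists in both counts. Small lists enter these counts through 1 gene, as did UFMylation (1 of 7 lower) and DOT1L and the super elongation complex (1 of 10 higher). The largest share on the higher side was that of genes restraining IFN-γ signalling (36.4%, 4 of 11), followed by machinery of gene expression and protein turnover. Large shares on the lower side were those of DNA repair, glycosylation, synthesis of coenzyme Q, lipoate and iron-sulfur clusters, and redox metabolism. With sgRNAs required to have 10 reads in the low-screen pool, each of the lists named here on the higher side had a median below 0. With 10 reads required in the high-screen pool, the shares on the lower side fell outside their 95% exact binomial intervals in 29 of the 70 lists, and came to 10.3% for homologous recombination, 10.8% for N-glycosylation, 2.86% for coenzyme Q, lipoate and iron-sulfur and 10.0% for oxidative stress and selenoproteins.

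**Figure D1:**
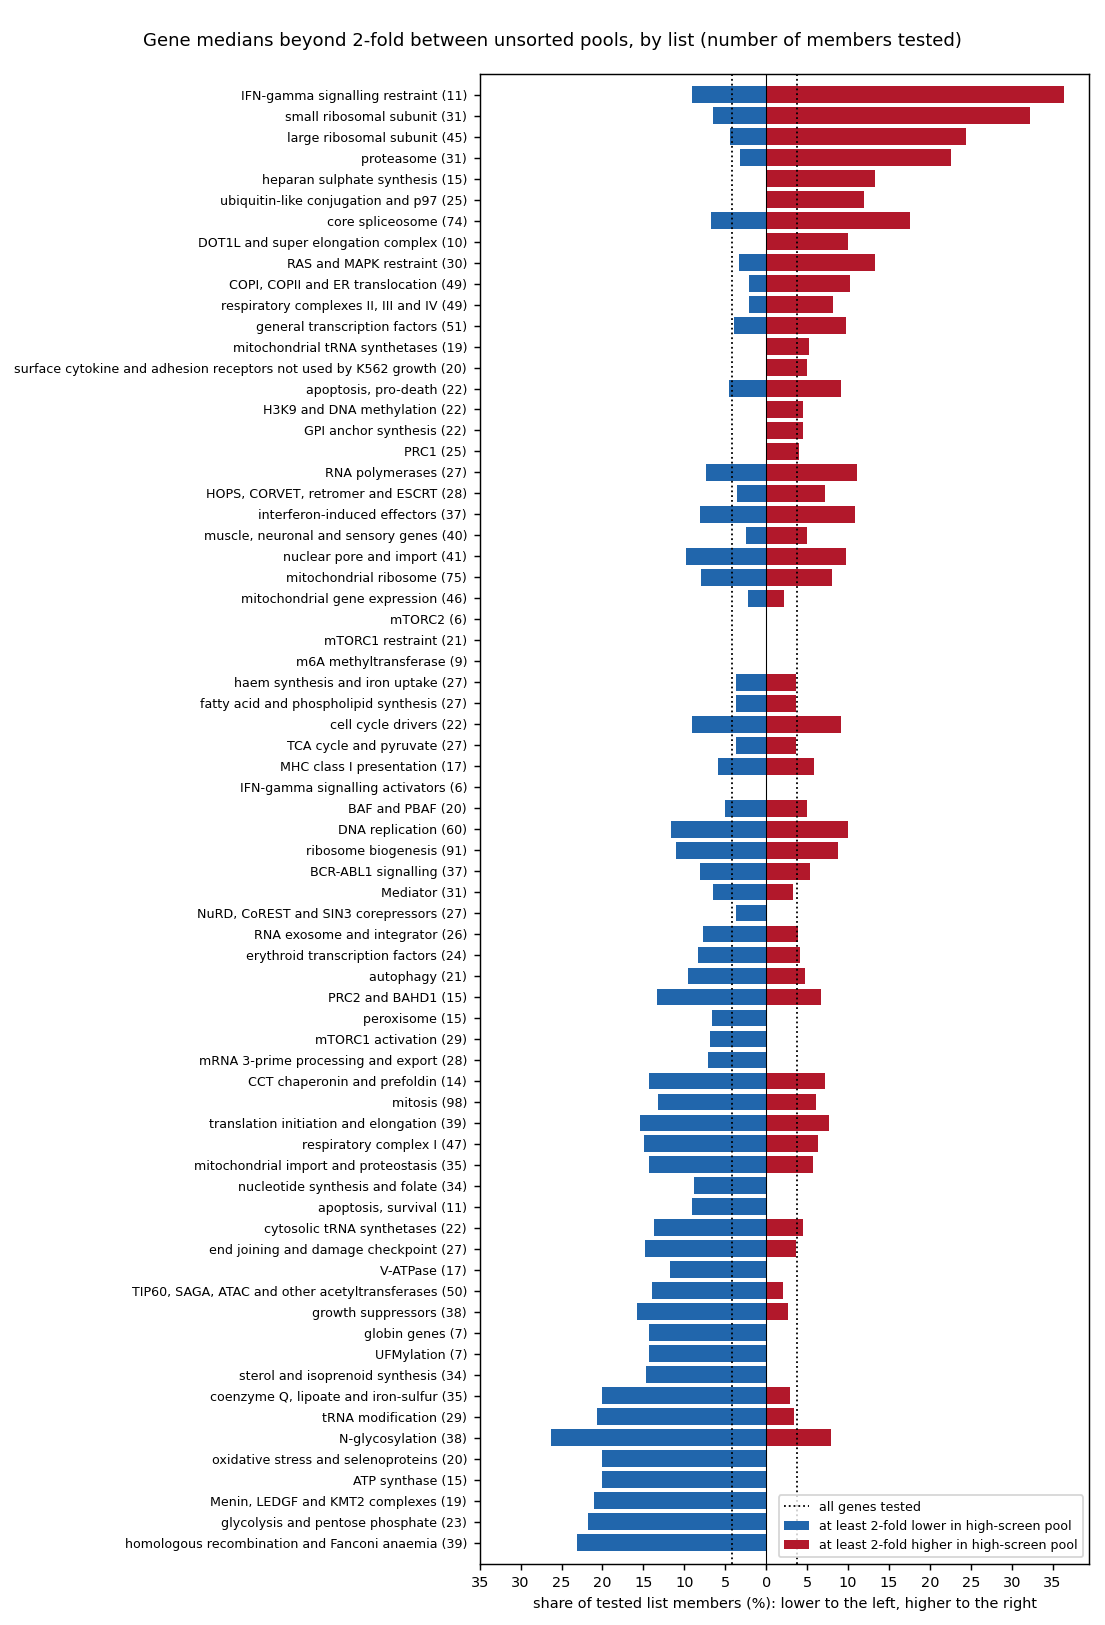
Share of the tested members of each of 70 gene lists whose gene median was at least 2-fold lower (blue bars, to the left) or higher (red bars, to the right) in the high-screen pool than in the low-screen pool, with all genes tested as dotted lines at 4.22% and 3.82%. The list for restraint of IFN-γ signalling has the longest bar to the right (36.4% of 11 members), next to ribosomal and proteasome lists (24.4% and 32.3% of large and small subunit members, 22.6% of proteasome members), and homologous recombination, glycolysis and N-glycosylation lists to the left (23.1%, 21.7% and 26.3%).

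Knockouts of ribosomal protein genes were shifted towards the high-screen pool. Of 45 large-subunit genes 11 were at least 2-fold higher and 2 at least 2-fold lower, and of 31 small-subunit genes 10 were higher and 2 lower, with list medians of 0.28 and 0.26. RSA called RPL6, RPL11, RPL22 and RPL32 of the large subunit and, among others, RPS18, RPS25 and RPS28 of the small subunit higher, and called no ribosomal protein gene lower. These were 4 of 45 and 4 of 31 genes called higher, against 0.825% of all genes. As 0.743% of all genes were called lower, the lack of lower calls among so few genes says little. The 10 sgRNAs against RPL22 had 13 to 157 reads in the high-screen pool with a median of 53, while 5 of them had 0 reads in the low-screen pool, where the median was 81.5. RPL22 thus had a gene median of 2.16, with an interquartile range over its sgRNAs of -0.92 to 5.54, and the values of the 2 pools overlapped. RPL32 had the highest median of its list (4.25, 7 sgRNAs, of which 4 had 0 reads in the low-screen pool and 2 in the high-screen pool), and RPL35 the lowest (-1.49). Of the small subunit RPS25 was highest (3.29) and RPS7 lowest (-1.74). With sgRNAs required to have 10 reads in the low-screen pool the medians of RPL22, RPS18 and RPS25 were below 0. The calls of RPL6, RPL11, RPL22, RPS18 and RPS25 were then lost and RPL32 had too few sgRNAs left to be tested. That of RPS28 was kept.

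Subunits of the proteasome, which degrades ubiquitin-tagged proteins, followed the same direction, 7 of 31 genes being at least 2-fold higher and 1 lower. PSMD3, a subunit of the regulatory lid, had the smallest RSA score of any gene called higher. Its 9 sgRNAs had 0 to 120 reads in the high-screen pool with a median of 60, and 0 to 192 reads in the low-screen pool, where 5 of them had 0. In CPM, 8 of the 9 were higher in the high-screen pool, and the gene median was 4.25. PSMD1 (2.14) and PSMA3 (1.67) were also called higher, whereas PSMD6, another lid subunit, was called lower (-1.87). With 10 reads required in the low-screen pool the calls of PSMD3, PSMD1 and PSMA3 were lost. That of PSMD1 was also lost with 50 reads in either pool and with the low-screen pool thinned to equal depth. The PSMD6 call was lost with 10 reads required in the high-screen pool. NEDD8, the ubiquitin-like protein that activates cullin ligases, was called higher in the list of ubiquitin-like conjugation and p97 (3.73, with 4 of its 6 compared sgRNAs at 0 reads in the low-screen pool).

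Among RNA polymerase subunits 3 of 27 were at least 2-fold higher and 2 lower, and the 3 were all called. POLR2I, a subunit of RNA polymerase II, had 28 to 135 reads (median 64) for its 8 sgRNAs in the high-screen pool, none at 0, and 5 of the 8 at 0 reads in the low-screen pool, with the highest there at 700. The gene median was 5.17, and 7 of 8 sgRNAs had the higher CPM in the high-screen pool. POLR3A, the largest subunit of RNA polymerase III, had a median of 2.24 and no sgRNA at 0 in the high-screen pool against 4 of 10 in the low-screen pool. POLR2L, a subunit shared by the 3 polymerases, had one of 2.00. With 10 reads required in the low-screen pool the calls of POLR3A and POLR2L were lost. POLR2I then had too few sgRNAs left to be tested. TWISTNB, a subunit of RNA polymerase I that was not on the list, was called higher as well (4.39, with 6 of 10 sgRNAs at 0 reads in the low-screen pool and none in the high-screen pool), but its median was below 0 when sgRNAs had to have 10 reads in the low-screen pool.

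Of 74 core spliceosome genes 13 were at least 2-fold higher and 5 lower. SF3A2 of the U2 particle (2.89) and SNRPD2, an Sm core protein (3.57), were called higher, and PRPF8, the largest U5 protein, had 1.20 without a call. General transcription factors had 5 of 51 higher and 2 lower (TAF3, a TFIID subunit, was called at 1.31). Genes of the COPI and COPII coats and of ER translocation had 5 of 49 higher and 1 lower, with COPB2 (1.76) and TRAPPC3 (2.90) called higher and COPZ1 called lower (-2.01). Ribosome biogenesis was split, with 8 of 91 genes higher and 10 lower. NIP7, needed for maturation of the large subunit, was called higher (4.46), with 5 of its 7 sgRNAs at 0 reads in the low-screen pool and none in the high-screen pool, while WDR75, which acts in the early small-subunit processome, was called lower (-2.01). Under the requirement of 10 reads in the low-screen pool the medians of SNRPD2, TAF3, COPB2 and TRAPPC3 turned below 0, and under that of 10 reads in the high-screen pool the median of WDR75 turned above 0.

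**Figure D2:**
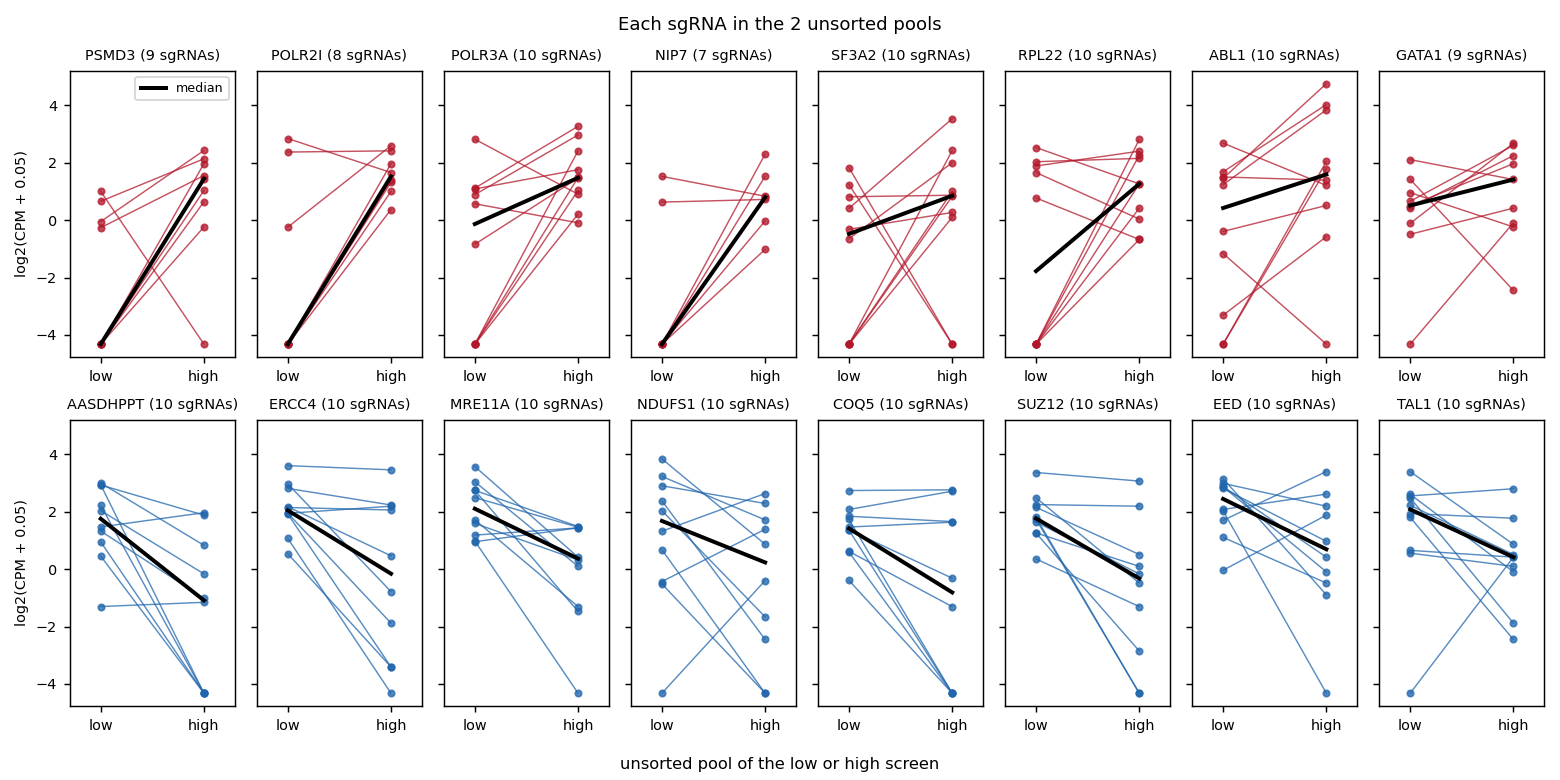
Abundance of each sgRNA of 16 genes in the low-screen and the high-screen pool, as log2 of CPM plus 0.05, with 1 line for each sgRNA and the median over the sgRNAs of a gene in black; a point near -4.3 is an sgRNA with 0 reads. For PSMD3, POLR2I and NIP7 most lines start at 0 reads in the low-screen pool, and for AASDHPPT and COQ5 several end at 0 reads in the high-screen pool.

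Knockouts of ribosomal proteins, the proteasome and the spliceosome were scarce in both pools, with more sgRNAs at low levels in the low-screen pool. Measured without a ratio or a filter, as a level relative to the median safe-targeting sgRNA of the same pool, the median sgRNA against a large-subunit gene stood at 0.517 in the high-screen pool and 0.380 in the low-screen pool. The share of the 393 large-subunit sgRNAs below 25% of the safe-targeting median was 30.3% (95% exact binomial interval 25.8 to 35.1) in the high-screen pool and 41.2% (36.3 to 46.3) in the low-screen pool. For the proteasome the shares were 26.5% (21.6 to 31.9) and 37.1% (31.6 to 42.8), for the spliceosome 24.8% (21.6 to 28.2) and 34.1% (30.6 to 37.8), and for RNA polymerases 14.7% (10.6 to 19.7) and 27.9% (22.4 to 33.9). For the small subunit they were 34.0% (28.25 to 40.05) and 41.2% (35.2 to 47.4), with intervals that overlap. Ribosome biogenesis lay the other way, at 30.9% in the high-screen pool and 29.2% in the low-screen pool. These intervals treat sgRNAs as separate although about 10 share each gene. Safe-targeting sgRNAs themselves lay below that level in 12.7% and 13.4% of cases and all gene-targeting sgRNAs in 14.9% and 16.3%. The RNA polymerase share was thus near that of all genes in the high-screen pool. The median RNA polymerase level was 0.655 there and 0.569 in the low-screen pool. The shares include sgRNAs at 0 reads, so they are not separate from those missing from the low-screen pool. Those at 0 in the high-screen and low-screen pools were 31 and 73 for the large subunit and 9 and 59 for the proteasome. For the spliceosome they were 38 and 130, and for RNA polymerases 9 and 36.

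How far these lists lay towards the high-screen pool depended on the sgRNAs missing from the low-screen pool. In the main comparison the list median was 0.37 for the proteasome but only 0.025 for the spliceosome and 0.025 for RNA polymerases. Of spliceosome genes 36 lay below 0 and 38 above, and of RNA polymerase genes 13 below and 14 above. By median, the spliceosome and RNA polymerases were thus hardly shifted. With sgRNAs required to have at least 10 reads in the low-screen pool, the list medians turned to -0.25 for the large subunit, -0.44 for the small subunit, -0.21 for the proteasome, -0.24 for the spliceosome and -0.07 for RNA polymerases, and only 4 of 43 large-subunit genes stayed at least 2-fold higher. With 10 reads required in the high-screen pool, chosen after the data were seen, the same medians were 0.72, 0.55, 0.62, 0.20 and 0.10. A limit of 10 reads is 0.443 CPM in the high-screen pool and 0.102 CPM in the low-screen pool. It is therefore stricter in the high-screen pool. The number of large-subunit sgRNAs compared through the high-screen pool alone was 62 and through the low-screen pool alone 61, of 380 compared. Over all genes these numbers were 10569 and 10471 of 184715.

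**Figure D3:**
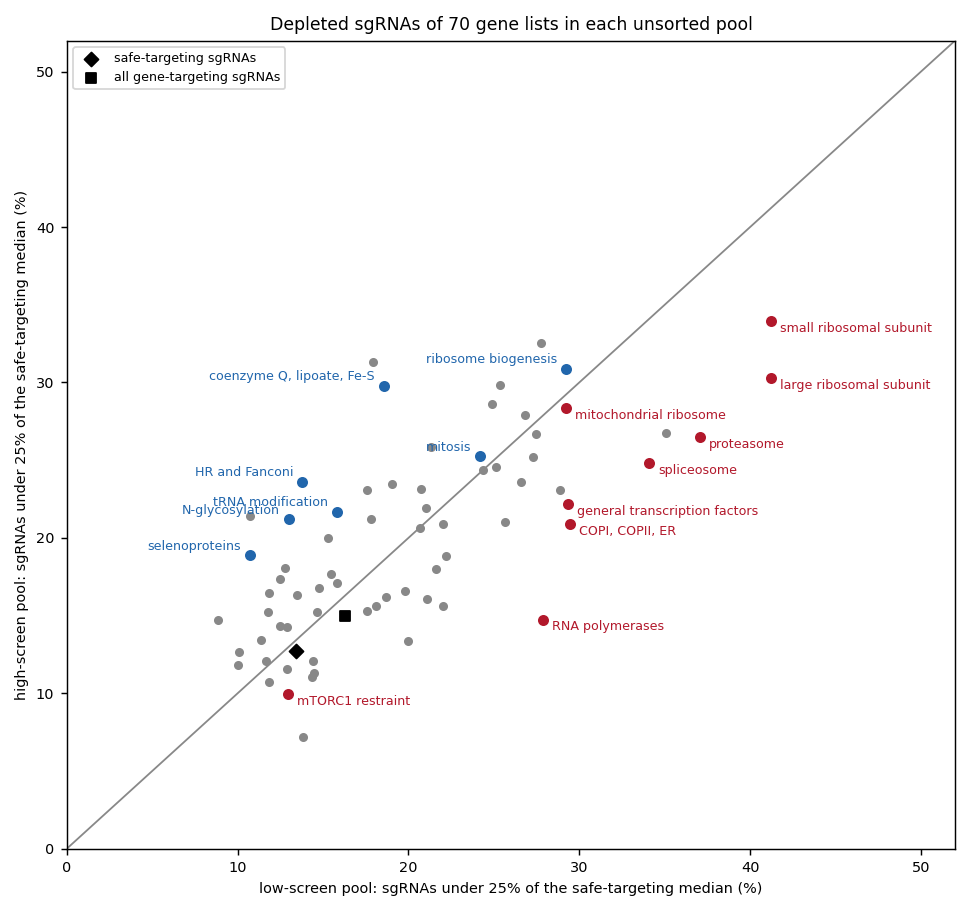
Share of the sgRNAs of each of 70 gene lists below 25% of the median safe-targeting sgRNA in the low-screen pool (horizontal axis) and in the high-screen pool (vertical axis), both in percent; the line marks equal shares, labelled lists are red below it and blue above it, other lists are grey, and the diamond and the square are safe-targeting and all gene-targeting sgRNAs. RNA polymerases (27.9% against 14.7%) and ribosomal proteins lie far below the line, and coenzyme Q, lipoate and iron-sulfur genes (18.5% against 29.8%) and homologous recombination genes (13.8% against 23.6%) far above it.

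In the opposite direction, knockouts of homologous recombination and Fanconi anaemia genes, which repair DNA breaks and interstrand crosslinks, were less abundant in the high-screen pool. Of 39 genes 9 were at least 2-fold lower and none at least 2-fold higher, with a list median of -0.52. ERCC4 (XPF), the nuclease that unhooks crosslinks, had 138 to 1193 reads (median 403) for its 10 sgRNAs in the low-screen pool and 0 to 247 (median 21) in the high-screen pool. In CPM 9 of 10 were lower in the high-screen pool, and the gene median was -2.74. MRE11A, the nuclease of the MRN complex, had 186 to 1167 reads in the low-screen pool and 0 to 62 in the high-screen pool, with a median of -2.12 and 8 of 10 sgRNAs lower. The recombination factor XRCC3 (-1.25) and the Fanconi ubiquitin ligase FANCL (-1.11) were the other called genes. RMI1 (-1.80), FANCB (-1.29), FANCC (-1.27), FANCI (-1.25) and SLX4 (-1.02) were beyond 2-fold without a call. The list was not uniform, since FANCD2 (0.52) and FANCE (0.99) lay on the other side, as did BRCA2 (0.18). The calls of ERCC4, MRE11A and FANCL were lost when sgRNAs had to have 10 reads in the high-screen pool, and that of XRCC3 was not.

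The median sgRNA against this list stood at 0.690 of the safe-targeting level in the high-screen pool and 0.898 in the low-screen pool, and 23.6% (19.4 to 28.2) against 13.8% (10.5 to 17.7) of its 377 sgRNAs lay below 25% of that level. In the low-screen pool the share was thus close to that of the safe-targeting sgRNAs (13.4%). The list median kept its sign in each of the 10 alternatives that gave one, between -0.58 and -0.35. The list of muscle, neuronal and sensory genes, which K562 growth does not use, also kept its sign, between -0.26 and -0.066. All alternatives reuse the same 2 libraries. A kept sign, here and for the lists below, therefore does not separate a shift of the list from a difference between these libraries. MCM9, a helicase that acts in recombination and was on no list in this group, was among the 15 genes with the smallest RSA scores on the lower side (-2.28, 8 of 9 sgRNAs lower). Genes of end joining and the damage checkpoint had 4 of 27 members lower and 1 higher. PRKDC (-1.45), TP53BP1 (-1.26), XRCC4 (-1.16) and PARP1 (-1.09) were the 4, none of them called, and the higher one was CDKN1A (1.60, called), the p21 cell cycle inhibitor.

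Genes of N-glycosylation, which builds the sugar chains of secreted and surface proteins, had 10 of 38 members at least 2-fold lower and 3 higher, with a list median of -0.46 that stayed below 0 in the 10 alternatives, between -0.52 and -0.034, the latter with summed counts. PGM3 (-1.88), which makes the sugar donor precursor UDP-GlcNAc, ALG13 (-1.74), which adds the second sugar of the lipid-linked chain, and the mannosyltransferase ALG9 (-1.36) were called lower. GFPT1 (-1.48) and GNPNAT1 (-1.08), of the same pathway as PGM3, and DHDDS (-1.45), SRD5A3 (-1.18) and DPAGT1 (-1.04), of dolichol synthesis and its charging, were lower without a call. The 3 higher members were ALG12 (1.06) and the oligosaccharyltransferase subunits OSTC (1.07) and OST4 (1.94). The share of sgRNAs below 25% of the safe-targeting level was 21.2% (17.1 to 25.8) in the high-screen pool and 13.0% (9.67 to 16.95) in the low-screen pool. GPI anchor synthesis, which shares dolichol-linked donors, did not show the shift, with none of 22 genes lower and 1 higher.

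Mitochondrial functions and cofactor synthesis, not all of it mitochondrial, fell on either side. In the list for coenzyme Q, lipoate and iron-sulfur cluster synthesis, 7 of 35 genes were at least 2-fold lower and 1 higher, and the median was -0.43. COQ5, a methyltransferase of coenzyme Q synthesis, was called lower (-1.81), with 70 to 652 reads in the low-screen pool, and with 4 of its 10 sgRNAs at 0 reads in the high-screen pool, where the highest had 152. Further members at least 2-fold lower without a call were NFU1 (-1.31), NUBP1 (-1.11), COQ2 (-1.09), ISCU (-1.01) and FAM96B (-1.01), which deliver or assemble iron-sulfur clusters except for COQ2 of the coenzyme Q pathway. LYRM4, which partners the cysteine desulfurase, was the higher one (1.13). The share of sgRNAs below 25% of the safe-targeting level was 29.8% (24.9 to 35.1) in the high-screen pool and 18.5% (14.5 to 23.2) in the low-screen pool, and the list median stayed below 0 in all 10 alternatives (-0.66 to -0.19), although that of COQ5 turned to 0.024 when sgRNAs had to have 10 reads in the high-screen pool. AASDHPPT, which attaches the cofactor of the mitochondrial acyl carrier protein and was on no list in this group, had 35 to 783 reads in the low-screen pool (median 334) and 0 to 87 in the high-screen pool (median 9.5), a gene median of -2.29.

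Respiratory complex I had 7 of 47 genes lower and 3 higher. NDUFS1, its largest iron-sulfur subunit, was called lower (-2.25) and NDUFS5 called higher (1.65). The list for complexes II, III and IV had 1 of 49 lower (UQCRH, -2.84) and 4 higher, among them UQCRC2 (3.58) and COX5A (1.55), both called. ATP synthase had 3 of 15 lower, ATP5L (-1.94), ATPAF1 (-1.37) and ATP5I (-1.24), and none higher, but its list median of -0.61 turned to 0.06 when sgRNAs had to have 10 reads in the high-screen pool. The mitochondrial ribosome was even, with 6 of 75 genes beyond 2-fold on each side and with MRPS25 (-1.68), MRPS5 (-1.08) and MRPL20 (-0.84) called lower and MRPL39 (1.53) called higher. In mitochondrial import and proteostasis 5 of 35 were lower and 2 higher, with TIMM13 called lower (-2.12) and HSPE1, the mitochondrial chaperonin cofactor, called higher (3.58). Filtering set some of these directions, since NDUFS1 and MRPS25 were above 0 with 10 reads required in the high-screen pool and UQCRC2 was below 0 with 10 reads required in the low-screen pool.

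The list for oxidative stress and selenoproteins had the lowest median of all 70 lists (-0.72), with 4 of 20 genes at least 2-fold lower and none higher. Its members include genes for selenocysteine incorporation, the kinase PSTK (-0.88, called), the synthase SEPSECS (-1.04), the elongation factor EEFSEC (-1.37) and the mRNA-binding factor SECISBP2 (-1.08). GCLC, the rate-limiting enzyme of glutathione synthesis, was at -1.47, glutathione reductase GSR at -0.99, and GPX4, the selenoprotein that reduces lipid peroxides, at -0.75. The thioredoxin branch was weaker, with TXNRD1 at -0.47 and TXN at 0.25, and KEAP1, which restrains NRF2, was at 0.65 while NFE2L2 (NRF2) was at -0.82. The list median stayed below 0 in all 10 alternatives (-0.78 to -0.49). Glycolysis had 5 of 23 genes lower and none higher, namely GPI (-1.497), TPI1 (-1.25), PKM (-1.21), ALDOA (-1.14) and ENO1 (-1.04), none of them called, and a list median of -0.07 that was above 0 in 2 of 10 alternatives. Genes of tRNA modification had 6 of 29 lower and 1 higher (METTL1, 1.31), with TRMT6 (-1.59) and TP53RK (-1.54) the lowest. Sterol and isoprenoid synthesis had 5 of 34 lower and none higher, with GGPS1, which makes the lipid for prenylation, called (-1.54).

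Chromatin regulators were listed because the series is about Menin, KMT2A/B and polycomb. Of PRC2, which methylates histone H3 at lysine 27, the core subunits SUZ12 (-1.74) and EED (-1.72) were called lower. The 10 sgRNAs against SUZ12 had 121 to 1010 reads in the low-screen pool (median 330) and 0 to 188 in the high-screen pool (median 17), and in CPM each of the 10 was lower in the high-screen pool. Those against EED had 91 to 870 reads in the low-screen pool and 0 to 237 in the high-screen pool, with 7 of 10 lower, and the call was absent in 3 alternatives, 1 of them the thinning of the low-screen pool to equal depth. The call of SUZ12 was absent in 1 alternative, the requirement of 10 reads in the high-screen pool. The catalytic subunit EZH2 was at -0.74 without a call. The accessory subunit MTF2 (0.77) lay on the other side with AEBP2 (0.71) and PHF19 (0.64), RBBP7 was at 1.44, and BAHD1, a reader of the mark, was at 0.09. The median of the 15 PRC2 and BAHD1 genes was 0.06. PCGF1 of PRC1.1 was at -0.74 and none of 25 PRC1 genes was at least 2-fold lower.

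Of the Menin, LEDGF and KMT2 complexes, which place H3K4 methylation, 4 of 19 genes were at least 2-fold lower and none higher. They were PAXIP1 (-1.86, called) and the WDR5 module members DPY30 (-1.58), RBBP5 (-1.20) and WDR5 (-1.18), whereas MEN1 (-0.04) and PSIP1 (-0.68), which encode Menin and LEDGF, were not among them. The histone acetyltransferase list had 7 of 50 lower, with the SAGA subunit ENY2 called (-1.80), and 1 higher, and KAT5 was called higher although its median was 0.65 and its spread wide. Mediator had 2 of 31 lower, with MED14, the backbone subunit, called (-2.27). No member of the corepressor list was at least 2-fold higher and 1 of 27 (SIN3B, -1.20) was lower, with a list median of -0.39. Requiring 10 reads in the low-screen pool put KAT5 below 0, and requiring them in the high-screen pool put ENY2, MED14 and the corepressor list median above 0.

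Cell division genes did not move as a block. Of 98 mitosis genes 13 were lower and 6 higher. The genes called lower were PRC1, the spindle midzone bundler (-2.09), the APC/C subunit ANAPC10 (-2.10), the centriole and centrosome proteins CEP192 (-1.66), SASS6 (-1.54) and CENPJ (-1.09), and the checkpoint kinase BUB1 (-1.53), and those called higher were the kinetochore motor CENPE (2.14) and CDCA8 of the chromosomal passenger complex (1.301). DNA replication had 7 of 60 lower and 6 higher, with POLE2 (-2.13) and RAD1 (-1.82) called lower and RPA1 (1.301) called higher, POLE2 being above 0 with 10 reads required in the high-screen pool. Translation factors had 6 of 39 lower and 3 higher, EIF2S2 (-1.86) being called lower and EIF3D (1.32) higher, and cytosolic tRNA synthetases had 3 of 22 lower and 1 higher. Of mitosis sgRNAs 25.3% lay below 25% of the safe-targeting level in the high-screen pool and 24.2% in the low-screen pool.

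Genes on which K562 itself relies were read as a check of the cell line. Of 12 such genes all 12 had a median sgRNA level below that of the safe-targeting sgRNAs in the high-screen pool and 11 in the low-screen pool, a level that 9740 and 10797 of all 19637 genes tested were also below. ABL1, the kinase of the fusion, was called higher (2.48), a call lost with 10 reads required in the low-screen pool. Its 10 sgRNAs had 0 to 607 reads in the high-screen pool (median 67.5) and 0 to 626 in the low-screen pool (median 148.5), and 7 of 10 had the higher CPM in the high-screen pool. BCR was at 1.21 over 7 compared sgRNAs, with 5 of 10 at 0 reads in the low-screen pool and 1 in the high-screen pool, and the erythroid factor GATA1 was at 1.46, with 6 of 9 sgRNAs higher. TAL1 (-1.09), its partner in the erythroid complex, the survival gene BCL2L1 (-1.003) and MYB (-0.96) lay on the other side, with 8 of 10 TAL1 sgRNAs lower in the high-screen pool. LMO2 (-0.30), KLF1 (-0.29), STAT5B (0.23), STAT5A (0.44), GAB2 (0.67) and LDB1 (0.68) were within 2-fold. Over the 117 sgRNAs against the 12 genes the median level was 0.471 in the high-screen pool and 0.491 in the low-screen pool.

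Genes were also compared by position. K562 is known to carry the BCR-ABL1 fusion in extra copies together with flanking parts of chromosomes 22 and 9, and Cas9 cutting of a multi-copy segment is known to slow growth whichever gene is cut. BCR lies at chr22:23521891-23660224 and ABL1 at chr9:133588430-133763062 in GRCh37, both protein-coding genes on the plus strand. On chromosome 22, 26 of 128 genes (20.3%) that start before the end of BCR were at least 2-fold higher in the high-screen pool, against 14 of 342 (4.09%) beyond it. On the lower side were 9 of the 128 (7.03%) and 10 of the 342 (2.92%), and without immunoglobulin segments 13 of 89 genes (14.6%) before the end of BCR were higher and 5 lower. Of all chromosomes examined chromosome 22 had the largest share of genes at least 2-fold higher (8.51%), the next being chromosome 21 with 5.78%. Within 1 Mb before BCR and in BCR 15 of 46 genes were higher and 5 lower. Of these 46 genes 36 were immunoglobulin lambda segments, near-identical copies whose reads the authors' removal of multiply aligned reads could have affected, and without them 4 of 10 were higher and 1 lower. Immunoglobulin segments on other chromosomes had 11 of 72 higher.

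The same stretch was depleted in both pools. Over genes before the end of BCR the median sgRNA level was 0.552 of the safe-targeting level in the high-screen pool and 0.412 in the low-screen pool, against 1.08 and 0.966 for genes beyond it. Without the immunoglobulin segments the 89 remaining genes had 0.575 and 0.482, with 74 of the 89 gene levels below 1 in the high-screen pool and 83 in the low-screen pool, against 9740 and 10797 of the 19637 genes tested. Genes at least 2-fold higher in this stretch had unrelated functions. They included the histone chaperone HIRA (1.86, level 0.632 in the high-screen pool and 0.301 in the low-screen pool), C22orf29 (1.74, 0.787 and 0.178), the splicing protein PPIL2 (1.37, 0.379 and 0.180) and CLTCL1 (1.315, 0.391 and 0.191). The interferon-induced protease USP18 (1.18, 0.431 and 0.461) and the RAS regulator LZTR1 (1.04, 0.379 and 0.499) were higher by the median ratio but not by the level. Genes at least 2-fold lower in the same stretch included C22orf39 (-1.53), USP41 (-1.24), GGTLC2 (-1.22), GNB1L (-1.17) and KLHL22 (-1.12). The adaptor CRKL, a partner of BCR-ABL1, was at 0.12 with levels of 0.529 and 0.372. USP18 and LZTR1 counted among the genes at least 2-fold higher of the lists for IFN-γ restraint and RAS restraint, in which no gene was called higher.

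**Figure D4:**
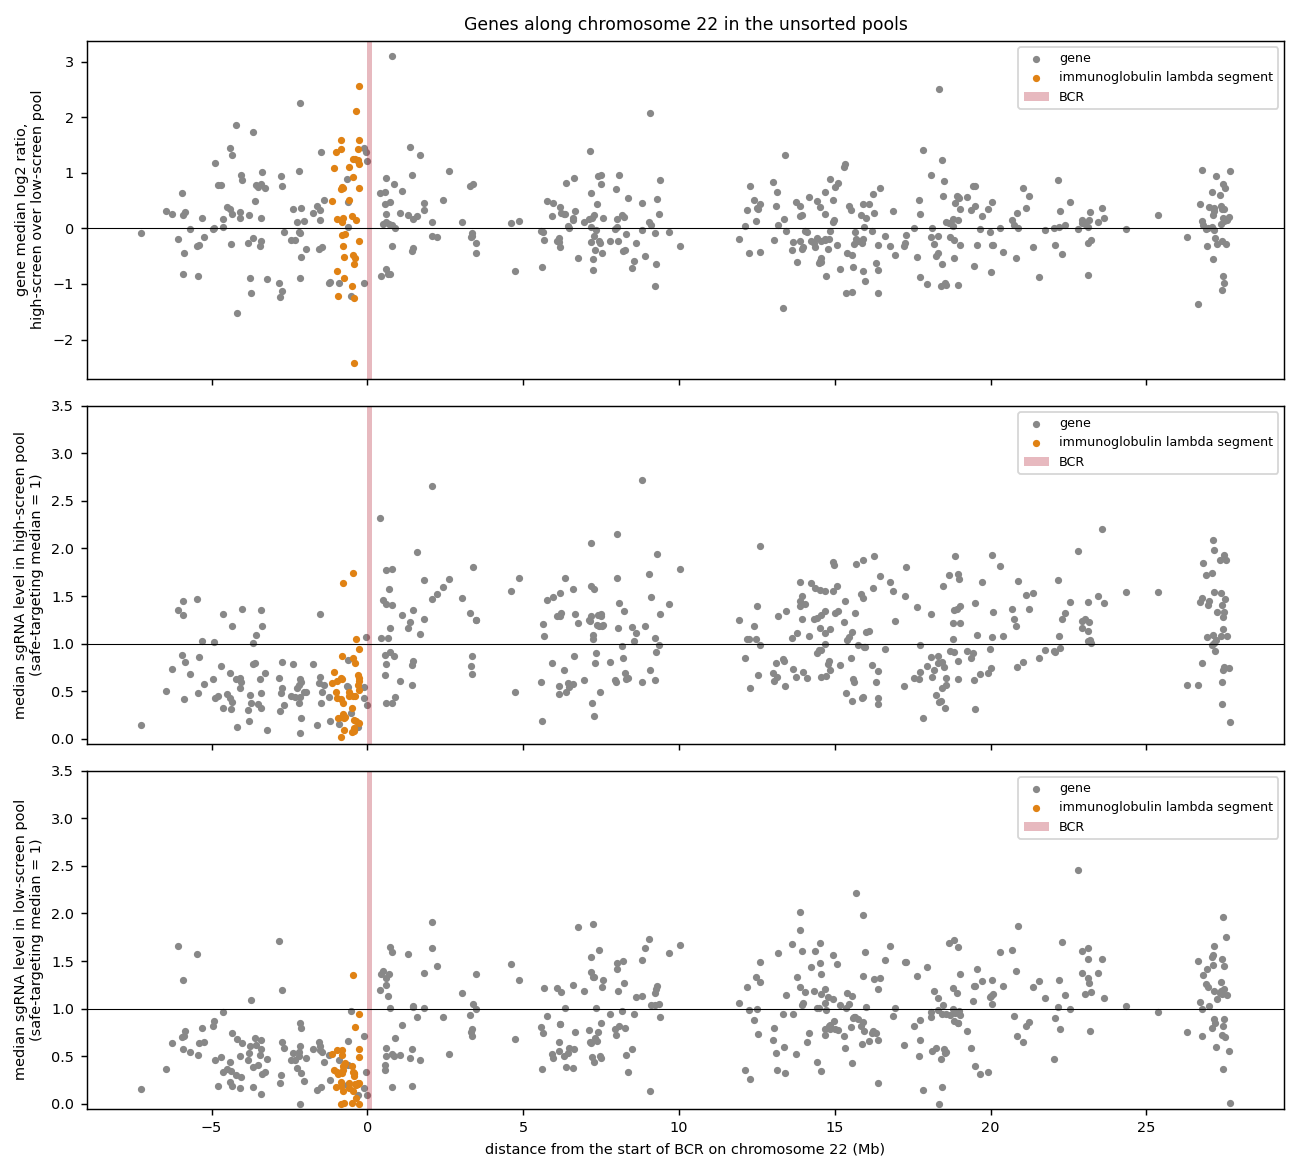
Genes of chromosome 22 by distance of their start from that of BCR in Mb, with the gene median log2 ratio of high-screen over low-screen pool above and the median sgRNA level of each gene in the high-screen and low-screen pools below, the safe-targeting median being 1; BCR is shaded and immunoglobulin lambda segments are orange. Left of BCR most genes lie below 1 in both pools (medians over sgRNAs 0.552 and 0.412), and right of it they spread about 1 (1.08 and 0.966).

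On chromosome 9, 3 of the 12 genes in ABL1 or within 1 Mb after it were called higher, against 3 of 730 on the rest of the chromosome. They were ABL1, QRFP (1.07), a hypothalamic neuropeptide, and AIF1L (0.57). The calls of ABL1 and QRFP were lost with 10 reads required in the low-screen pool. That of QRFP was also lost without the most extreme sgRNA of each gene. The 10 sgRNAs against QRFP had 29 to 135 reads in the high-screen pool and 4 of them had 0 in the low-screen pool, with 8 of 10 higher in the high-screen pool. The median level of sgRNAs in this window was 0.874 in the high-screen pool and 0.649 in the low-screen pool, and 12.6% and 28.6% of them lay below 25% of the safe-targeting level. The copy number of these segments was not measured, and its part in the difference was not tested.

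The IFN-γ pathway was read because its dose set the screens apart. None of the 6 signalling activators was beyond 2-fold in either direction, with IFNGR1 at -0.72, JAK1 at -0.25, IFNGR2 at 0.02, JAK2 at 0.06 and IRF1, the downstream factor, at 0.88. IRF1 had 7 of 10 sgRNAs higher in the high-screen pool. Among 11 restraining genes PTPN1, a phosphatase, was called lower (-1.96, but 0.33 with 10 reads required in the high-screen pool) and STUB1 (1.41), CISH (1.19), USP18 (1.18) and PTPN2 (1.18) were beyond 2-fold the other way without a call, while SOCS1 was at -0.55. The list of restraining genes had the highest median of the 70 lists (0.50) and the largest share at least 2-fold higher (36.4%), but its median was -0.016 with 10 reads required in the low-screen pool, and with summed counts it was 0.063 with no member at least 2-fold higher. Of 37 interferon-induced effectors 3 were lower and 4 higher with no call. HLA-B (0.35) and B2M (-0.59) were within 2-fold, and the list for MHC class I presentation had 1 of 17 genes beyond 2-fold on each side, NLRC5 (-1.08) and HLA-E (1.28).

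Of 38 genes listed as growth suppressors 6 were at least 2-fold lower and 1 was higher. The 6 were PHF6 (-1.42), STAG2 (-1.07), AMBRA1 (-1.07), CTCF (-1.06), CDKN1B (-1.05) and TADA2B (-1.05). Among other suppressors NF1 was at -0.93, TSC2 at 0.19, TSC1 at 0.32 and RB1 at 0.35, and SPRED2 was at -0.67. TSC1 and NF1 were more abundant than the safe-targeting sgRNAs in the low-screen pool, at 1.98 and 1.82 times their median, and in the high-screen pool TSC1 was at 2.12 and NF1 at 0.586. The lists of mTORC1 restraint and mTORC2 had no gene beyond 2-fold in either direction.

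Outside the lists, the genes with the smallest RSA scores included several with close copies elsewhere in the genome, whose counts are uncertain. On the lower side GOLGA6L4 (-3.56) and NUDT4 (-1.54) are of this kind, and on the higher side HMGN2 (5.01), MAP1LC3B2 (5.47) and LCE3D (1.78) are, as are the unnamed loci AL138847.1 (3.66), CH17-132F21.1 (2.74) and AC009060.1 (4.39), for which no function is known here. The others on the lower side were TGIF2, a homeodomain repressor (-2.53, each of 7 sgRNAs lower), SHQ1, an assembly factor of H/ACA particles (-2.13), AZIN1, an activator of polyamine synthesis (-2.37, each of 10 lower), the inositol phosphate kinase ITPK1 (-1.33, each of 10 lower), the chemokine scavenger ACKR2 (-0.67, each of 10 lower), ZMYM5 (-2.18) and TMEM143 (-0.59, above 0 with 10 reads required in the high-screen pool). On the higher side they were LPPR1, a neuronal membrane protein (1.78), and FGD2, an exchange factor for CDC42 (1.11). All 9 sgRNAs against LPPR1 and all 10 against FGD2 had the higher CPM in the high-screen pool.

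In other lists the counts were small. Nuclear pore and import had 4 of 41 genes beyond 2-fold on each side with TNPO3 called lower (-1.90). Cell cycle drivers had 2 of 22 on each side, with CDK2 called lower (-1.65) and TFDP1 higher (1.63). The TFDP1 median was below 0 with 10 reads required in the low-screen pool. The exosome and integrator list had 2 of 26 lower and 1 higher, with EXOSC6 called higher (2.13). The CDK2 call was absent in 5 alternatives and the EXOSC6 call in 4. The chaperonin and prefoldin list had 2 of 14 lower (VBP1 called, -2.02) and 1 higher, autophagy 2 of 21 lower (PIK3C3 called, -2.06) and 1 higher, vesicle tethering and ESCRT 1 of 28 lower and 2 higher (VPS35 called, 1.92), nucleotide and folate synthesis 3 of 34 lower (MTHFD1 called, -1.43) and none higher, and the V-ATPase 2 of 17 lower and none higher. Fatty acid and phospholipid synthesis had 1 of 27 on each side with CDIPT called lower (-1.83), haem synthesis 1 of 27 on each side with the haem exporter FLVCR1 called higher (1.68), and the globin list 1 of 7 lower with HBQ1 called (-0.95), a member of a family of close copies. Lists of genes not used by K562 growth had few members beyond 2-fold. None of 20 surface receptors was lower and 1 was higher, with a list median of -0.01. Of 40 muscle, neuronal and sensory genes 1 was lower and 2 were higher, and 1 was called higher. The median of this second list was -0.22 and stayed below 0 in all 10 alternatives (-0.26 to -0.066).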

How the data were processed

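The deposited files hold raw read counts per sgRNA, 1 file per library. According to the study's methods the authors trimmed the constant part of each read, mapped reads to the sgRNA sequences with Bowtie2 and removed multiply aligned reads, for which versions are not given in the sources used here. Reads without an sgRNA made up 20.6% of the high-screen and 12.1% of the low-screen file and were left out. Counts were scaled to matched reads, sgRNAs with at least 10 reads in either pool were kept, and log2 ratios were formed with a pseudocount of 1. Genes needed 4 sgRNAs. RSA was computed with Python 3.11, numpy, pandas and scipy and checked on simulated counts. A gene was identified by its symbol and Ensembl identifier, and 59 symbols had more than 1 identifier, of which the one with most sgRNAs was used in lists. Positions came from GENCODE release 44 lifted to GRCh37, in which 19120 of the 19637 genes were found. Named were the 15 called genes with the smallest RSA score in each direction, up to 4 called members and both extremes of each list, and a set of fixed genes, and further list members were named after their values were seen. The gene lists and the comparison were chosen with earlier results of these data known. The third library, of sorted cells, entered only the count of sgRNAs and genes seen. Alternatives changed the filter, pseudocount, centring, depth, gene summary and call rule. Centring within subpools was not run, because sgRNA names carry no subpool. Some genes are not reported here.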

Additional observations from a re-analysis of the deposited data

How the results depend on the processing

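The counts of calls stayed within 1.5 times under a pseudocount of 5, thinning of the low-screen pool to equal depth and a call rule of 4 sgRNAs beyond 2-fold. Without a minimum count 1 gene passed the adjustment on the higher side. With at least 50 reads in either pool 412 genes were at least 2-fold higher. With at least 10 reads in the low-screen pool, which removes the sgRNAs absent there, 265 were, and RSA called 91 genes higher, of which 53 were among the 162. Requiring 10 reads in the high-screen pool, an alternative chosen after the data were seen, left 377 genes at least 2-fold lower, and 61 of the 146 genes called lower remained. Centring on safe-targeting sgRNAs gave 497 lower and 1155 higher by 2-fold and left the calls as they were, since it does not alter ranks. Without the most extreme sgRNA of each gene, which removes those sgRNAs from the ranking of every gene, 261 genes were called lower and 248 higher, 21 and 29 passed the adjustment, and 428 and 394 were beyond 2-fold. The mean in place of the median gave 1714 genes at least 2-fold higher, and summed counts gave 257 lower and 251 higher. For these counts the cause was not tested further.

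Some called genes changed sign. With at least 10 reads in the low-screen pool the medians were -0.00783 for COPB2, -1.37 for FARS2, -1.08 for KAT5, -1.27 for RPL22, -0.32 for RPS18, -0.53 for RPS25, -0.49 for SNRPD2, -0.053 for TAF3, -1.05 for TFDP1, -0.56 for TRAPPC3, -1.05 for TWISTNB and -0.39 for UQCRC2. With at least 50 reads in either pool they were -0.99 for FARS2, -0.47 for KAT5, -0.20 for RPS18, -0.31 for TFDP1 and -0.37 for TRAPPC3, and FARS2 was at -0.63 without its most extreme sgRNA. When 10 reads were required in the high-screen pool they were 0.024 for COQ5, 0.51 for ENY2, 1.25 for MED14, 2.33 for MRPS25, 0.35 for NDUFS1, 0.15 for POLE2, 0.33 for PTPN1, 0.20 for TAF1B, 0.26 for TMEM143 and 0.67 for WDR75. Of 48 genes that the naming rule chose and that were called higher 33 lost the call with 10 reads required in the low-screen pool and 8 had too few sgRNAs left to be tested, and of 52 so chosen and called lower 35 lost it with 10 required in the high-screen pool. Other called genes named in the text, such as CDCA8, AIF1L, ANAPC10, SASS6 and CENPJ, were not part of these counts. The call of CDK2 was absent in 5 alternatives, and those of ALG9, EXOSC6, MRPL39, NDUFS5 and TAF1B in 4 each. No paired analysis was possible because each side was 1 library.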
